A study of Mus musculus with 6 samples.

Results

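The genes described here encode enzymes that cut or crosslink the extracellular matrix of subcutaneous inguinal white fat (iWAT), together with the inhibitors of those enzymes. They were taken by symbol from the deposited gene table, as every row with a symbol starting with *Mmp*, *Timp*, *Adam* or *Lox*, which gave 91 of 19445 rows and 90 symbols. *Timp3* fills 2 rows. The rule also took *Loxhd1*, which shares a prefix with the lysyl oxidases but is not one of them, and *Adamdec1*, which is counted apart from the *Adam* and *Adamts* rows. Both were under the expression filter. The samples were iWAT of 3 *Hlx* transgenic mice (TG) and 3 littermate controls (WT), labelled as male and 12 weeks old, with 1 RNA-Seq library per mouse. The transgene places *Hlx* cDNA behind the *aP2* (*Fabp4*) promoter on a C57BL/6 × SJL hybrid background backcrossed to C57BL/6, the controls do not carry it, and no treatment was given. Levels are FPKM, reads scaled by transcript length and by all mapped reads, so levels of different genes can be compared per length.

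Matrix metalloproteinases (MMPs) are zinc enzymes that are made as inactive proenzymes and cleave collagens, proteoglycans and other matrix proteins, and the tissue inhibitors of metalloproteinases (TIMPs) bind their active site. ADAM proteins are membrane proteases that release the outer parts of cell surface proteins, whereas ADAMTS proteases are secreted and process procollagens and large proteoglycans. Lysyl oxidases (LOX and the LOXL proteins) oxidize lysines in collagen and elastin so that the fibres become crosslinked. In fat, adipocytes sit in a pericellular basement membrane and a collagen mesh, which are made largely by fibroblasts, progenitors and the adipocytes themselves, and are remodelled as the cells change in size.

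*Hlx* RNA, the check of the labels, was at 110, 79.6 and 99.5 FPKM in the transgenic mice and at 6.88, 7.35 and 8.14 FPKM in the wild-type mice. Its log2 fold change was 3.51 (limma adjusted p = 0.000106). All 6 libraries held *Xist* RNA, from 20.2 to 33.6 FPKM, and 0 of the 28 loci of the Y chromosome had a value above 0, which goes against the labelled sex in both genotypes alike. The adipocyte markers were present in every library, with *Fabp4* at means of 26591 FPKM (TG) and 21945 FPKM (WT). The total depth is not known from FPKM. The commonest ratio between low values, under 0.3 FPKM, of each mouse and wild-type replicate 3 put the relative depth at 0.714, 1.14 and 0.690 in the transgenic mice and at 0.943, 1.41 and 1 in the wild-type mice, so low values were less precise in transgenic replicates 1 and 3. In bulk tissue, fewer cells of a type and less RNA per cell cannot be told apart.

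Of the 91 member rows, 44 (43 symbols) had a mean over 1 FPKM in at least 1 genotype and were tested. These were 11 *Mmp* rows of 23, all 5 *Timp* rows, 10 *Adam* rows of 32, 11 *Adamts* rows of 19, 3 *Adamtsl* rows of 5 and 4 *Lox* rows of 5. Of the 47 rows under the filter, 11 were listed at 0 in all 6 mice. *Adamts7*, at means of 1.01 FPKM (TG) and 1.02 FPKM (WT), lay just inside the filter, and *Adamtsl3*, at 0.905 and 0.662 FPKM, just outside it. Another 4 rows passed through 1 genotype only, *Mmp27*, *Adamts6* and *Mmp25* through the wild-type mice and *Adamts4* through the transgenic mice, so that for these the filter itself favours a difference. The rows of *Loxl3* (with *Aup1* and *Dqx1*) and *Adam8* (with *6430531B16Rik*) carry other genes as well, and their values cannot be given to the member alone.

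The tested members that fell in transgenic iWAT numbered 6, namely *Mmp3*, *Mmp11*, *Mmp27*, *Adamts5*, *Adamts2* and *Adam15* (limma, adjusted p under 0.05 over 11692 rows, n = 3 mice per genotype). They make up 13.6% of the 44 rows tested, where 7.03% of all tested rows were called lower. In the other direction 0 members were called by limma, the only tool run, where 11.6% of all tested rows were called higher, and 2 members, *Adam11* and *Adamts4*, were higher at an unadjusted p under 0.05. At that p, 4.55% of the members were higher and 22.7% (10 rows) lower, where 19.4% and 16.8% of all tested rows were. The median log2 fold change of the 44 rows was -0.18, against -0.01 over all tested rows, and 35 of the 44 were negative, or 79.5%, against 51.6% of all tested rows. The groups did not overlap at 13 members, or 29.5%, against 42.9% of all tested rows. Of these 13, 9 were lower and 4 higher in the transgenic mice. The number called lower varied with the mice in the fit. It was 1 without transgenic replicate 3, 2 without wild-type replicate 1 or wild-type replicate 2, and 8 at most, without transgenic replicate 2. A fit with fewer mice can lose calls for that reason alone. Without wild-type replicate 2, *Adamts2* and *Adam15* lost their calls at log2 fold changes of -0.66 and -0.44, against -0.68 and -0.45 with all mice. *Mmp11* moved further, from -1.02 to -0.70 without wild-type replicate 1. The share of all rows called in these fits is not given here.

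**Figure D1:**
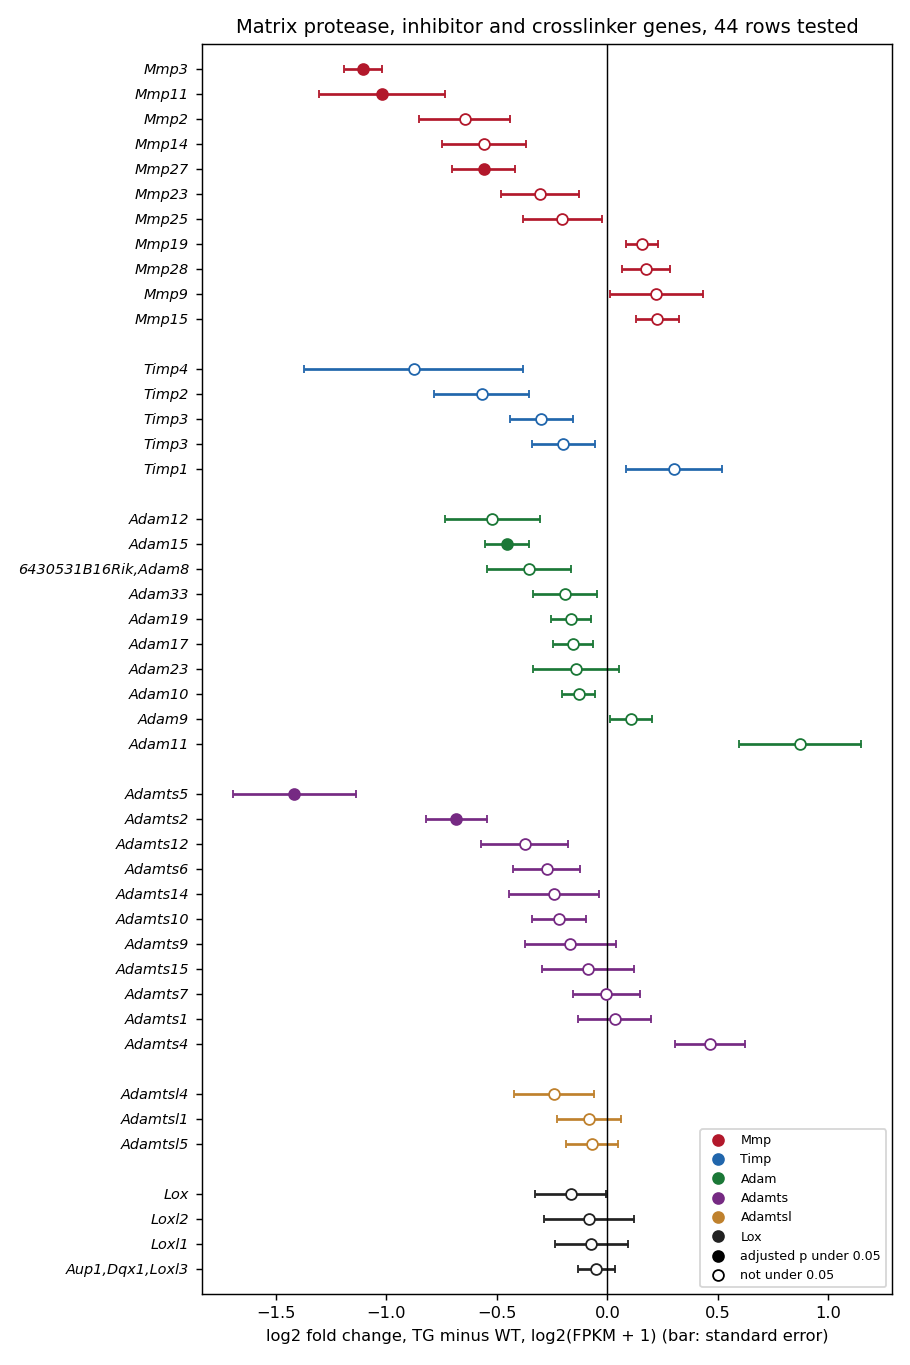
Log2 fold change (TG minus WT, x axis, log2(FPKM + 1) scale) of the 44 tested member rows, grouped by family, with bars for the limma standard error and filled points for an adjusted p under 0.05 (n = 3 mice per genotype). The 6 filled points all lie left of 0, the Lox rows lie between -0.17 and -0.05, and 9 rows lie right of 0, none of them filled.

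For the 6 genes that fell, the sequence before the transcription start was read from RefSeq (GRCm38.p6), where 25 of the 43 tested symbols had an entry and *Adamts5* was missing. The last 120 bases before the RefSeq start are shown because they let the genes be compared on the elements classically described for this family. Capitals mark matches on either strand to 3 motifs. The AP-1 element, bound by Fos and Jun proteins, was searched as TGANTCA with any base in the middle. The TATA box, which places the start of transcription in many regulated genes, was searched as TATAAA without further flanks. The GC box, the element of Sp proteins, was searched as GGGCGG in the same way. Matches to these 3 motifs do not overlap each other here.

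Mmp3, chr9:7445702-7445821, plus strand: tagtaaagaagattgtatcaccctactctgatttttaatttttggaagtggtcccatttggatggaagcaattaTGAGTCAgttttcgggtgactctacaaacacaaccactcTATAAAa

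Mmp27, chr9:7571276-7571395, plus strand: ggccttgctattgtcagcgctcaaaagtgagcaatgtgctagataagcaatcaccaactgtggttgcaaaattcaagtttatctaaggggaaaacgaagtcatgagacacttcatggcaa

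Mmp11, chr10:75932503-75932622, minus strand: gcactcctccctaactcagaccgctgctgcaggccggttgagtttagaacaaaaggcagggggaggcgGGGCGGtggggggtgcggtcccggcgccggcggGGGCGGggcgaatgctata

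Adamts2, chr11:50601965-50602084, plus strand: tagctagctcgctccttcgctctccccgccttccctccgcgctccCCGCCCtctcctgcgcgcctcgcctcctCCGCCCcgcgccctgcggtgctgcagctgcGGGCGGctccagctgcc

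Adam15, chr3:89350029-89350148, minus strand: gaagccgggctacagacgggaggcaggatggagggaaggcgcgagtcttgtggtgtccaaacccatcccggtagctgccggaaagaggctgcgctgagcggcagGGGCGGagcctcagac

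The windows of *Mmp3*, *Mmp27*, *Mmp11* and *Adam15* end 0, 62, 6 and 18 bases before the locus in the gene table. That of *Adamts2* reaches 77 bases into its locus, which starts upstream of the RefSeq start, and all 3 of its marked matches lie there. The 5 windows did not share 1 layout. *Mmp3* held an AP-1 match at bases -46 to -40, and a TATA match at bases -7 to -2. These positions count from the RefSeq start, and where transcription starts in iWAT was not tested. *Mmp27* held none of the 3 motifs. *Mmp11*, *Adamts2* and *Adam15* held 2, 3 and 1 GC box matches, and G and C made up 69.2%, 76.7% and 66.7% of their bases, against 35.8% in *Mmp3* and 42.5% in *Mmp27*. Among all 32851 promoters of the same length, 3.41% held the AP-1 match, 6.34% the TATA match and 26.5% the GC box. Among the 28 promoters of tested members these numbered 1, 2 and 17, so that the GC box was in most of them. The 28 belong to genes over the expression filter, whereas the 32851 were not filtered by expression. The 2 sets are therefore unlike, and the share among all genes over the filter is not given here.

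*Mmp3*, on chromosome 9 from 7445822 to 7455974 (mm10), encodes stromelysin-1, which cleaves proteoglycans, fibronectin and basement membrane proteins and activates other MMP proenzymes. It was at 16.2, 16.6 and 18.6 FPKM in the transgenic mice and at 40.6, 37.1 and 36.2 FPKM in the wild-type mice. The transgenic values lay close together, far under the lowest wild-type value. Its mean was 0.451 times that of wild-type iWAT, and the log2 fold change was -1.10 (standard error, SE, 0.09, adjusted p = 0.000696 by limma). An exact permutation test of this gene, as of each of the other genes that fell, gave p = 0.1, the smallest that 3 mice against 3 allow (two-sided). Among the 44 rows, *Mmp3* alone stayed under an adjusted p of 0.05 in all 13 other settings, with log2 fold changes from -1.16 to -1.05.

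*Adamts5*, on chromosome 16 from 85856301 to 85903540, encodes an aggrecanase that also cleaves versican. It was at 8.83, 6.06 and 5.02 FPKM in the transgenic mice and at 16.1, 28.8 and 14.6 FPKM in the wild-type mice. The groups did not overlap, and wild-type replicate 2 stood above the other controls. The log2 fold change was -1.42 (SE 0.28, adjusted p = 0.0156 by limma), the lowest of the 44 rows, and -1.13 without that mouse. The adjusted p rose to 0.0556 without transgenic replicate 3.

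*Adamts2*, on chromosome 11 from 50602008 to 50807576, encodes the procollagen N-proteinase, which removes the amino-terminal propeptide of fibrillar procollagens. It was at 17.6, 24.9 and 18.5 FPKM in the transgenic mice and at 34.5, 34.0 and 30.3 FPKM in the wild-type mice. Transgenic replicate 2 was the nearest to the controls and still under all of them. The log2 fold change was -0.68 (SE 0.14, adjusted p = 0.0169 by limma), and the call was kept in 10 of 13 other settings, the exceptions being those without transgenic replicate 3, wild-type replicate 1 or wild-type replicate 2 (adjusted p up to 0.0626). The other procollagen N-proteinase over the filter, *Adamts14*, was at 0.756, 1.68 and 1.37 FPKM in the transgenic mice and at 1.68, 1.18 and 2.15 FPKM in the wild-type mice, with overlapping groups (adjusted p = 0.428).

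*Adam15*, on chromosome 3 from 89339640 to 89350010, encodes a membrane ADAM with an integrin-binding disintegrin domain. It was at 36.7, 34.9 and 30.9 FPKM in the transgenic mice and at 50.9, 47.7 and 42.9 FPKM in the wild-type mice, with no overlap. Its log2 fold change, -0.45 (SE 0.10, adjusted p = 0.0233 by limma), was the smallest of the 6 in size, and the call was lost in the same 3 settings as that of *Adamts2* (adjusted p up to 0.0778). Of the exon bases of *Adam15* in the GENCODE M21 annotation of the same build, 20.6% overlap an antisense gene, and the library kit does not mark strand.

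*Mmp11*, on chromosome 10 from 75923224 to 75932496, encodes stromelysin-3, an MMP made by stromal cells and activated inside the cell. It was at 3.72, 2.73 and 2.45 FPKM in the transgenic mice and at 11.4, 6.26 and 4.58 FPKM in the wild-type mice. The wild-type values spread widely, and replicate 3 came close to the highest transgenic value. The log2 fold change was -1.02 (SE 0.29, adjusted p = 0.0492 by limma), and the call was lost in 8 of 13 other settings, with an adjusted p of up to 0.135. Of its exon bases 5.58% overlap *Chchd10* on the opposite strand, a gene of much higher level that had means of 220 FPKM (WT) and 873 FPKM (TG; log2 fold change 1.99). The part of *Chchd10* reads in the *Mmp11* value was not tested.

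*Mmp27*, on chromosome 9 from 7571458 to 7581776, belongs to the same stretch of the genome as *Mmp3*. It was at 0.903, 1.16 and 0.707 FPKM in the transgenic mice and at 2.17, 1.74 and 1.58 FPKM in the wild-type mice, with no overlap. The log2 fold change was -0.56 (SE 0.14, adjusted p = 0.0371 by limma), on a scale that understates changes at so low a level, and with a pseudocount of 0.1 it was -0.93. In 7 of the 13 other settings the call was lost, with adjusted p-values of 0.106 at most.

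**Figure D2:**
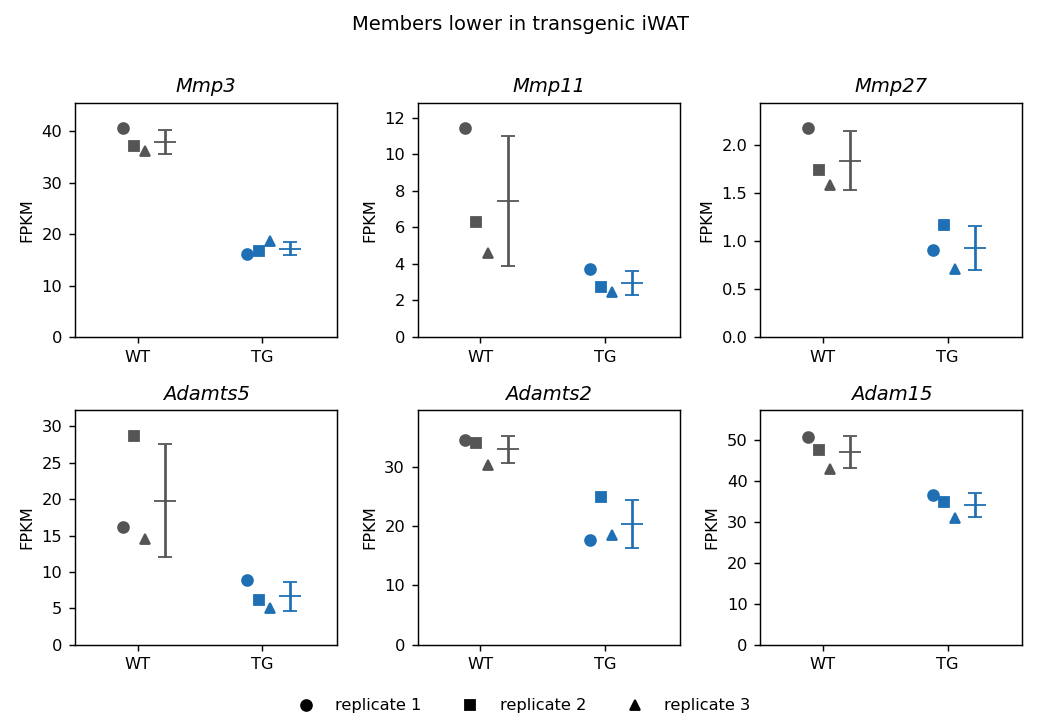
FPKM (y axis, starting at 0) of the 6 members called lower, by genotype, with 1 point per mouse, a symbol per replicate number, and the mean and SD of 3 mice beside them. In every panel all transgenic points lie under all wild-type points, with the narrowest gap in the *Mmp11* panel, between 3.72 and 4.58 FPKM.

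*Mmp3* and *Mmp27* lie in a cluster of 10 *Mmp* genes on chromosome 9, from 7272514 to 7699416, in which every row of the table is an *Mmp* gene. They were the only 2 of the 10 over the expression filter, and both fell. *Mmp27* passed that filter through the wild-type mice only, so that the filter itself favours its fall. *Mmp12*, the macrophage elastase, was under the filter at 0.199, 0.211 and 0.206 FPKM in the transgenic mice and at 0.302, 0.287 and 0.329 FPKM in the wild-type mice, and it was called lower when no filter was set. *Mmp13*, a collagenase, reached 0.153 FPKM at most, and *Mmp8*, the neutrophil collagenase, 0.320 FPKM, in transgenic replicate 2. *Mmp1a* and *Mmp1b* were listed at 0 in all 6 mice, and no mouse had more than 0.224 FPKM of *Mmp7*, *Mmp10* or *Mmp20*. With no filter set, none of the 5 genes under the filter with a value above 0 other than *Mmp12* was called.

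**Figure D3:**
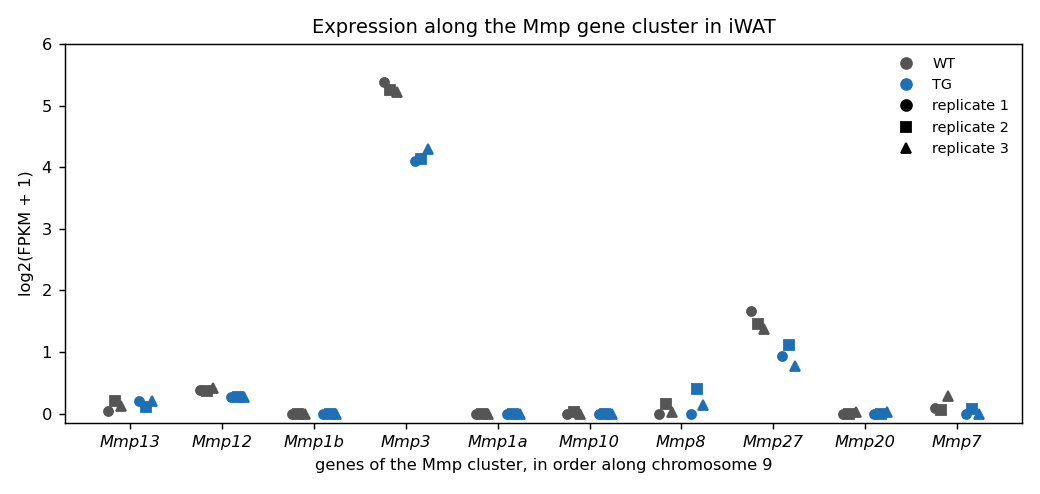
Expression as log2(FPKM + 1) (y axis) of the 10 *Mmp* genes of the chromosome 9 cluster in their order along the chromosome (x axis), with 1 point per mouse. *Mmp3* and *Mmp27* stand clear of 0 with the transgenic points under the wild-type points, and the other 8 genes are at 0.329 FPKM or less in every mouse.

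The MMPs with the highest levels were not called. *Mmp2* (gelatinase A), which cleaves type IV collagen and denatured collagen, was at 64.9, 95.0 and 70.6 FPKM in the transgenic mice and at 156, 98.6 and 110 FPKM in the wild-type mice. *Mmp14*, the membrane-type MMP that activates the *Mmp2* proenzyme, was at 34.6, 48.3 and 45.2 FPKM in the transgenic mice and at 80.9, 52.9 and 57.6 FPKM in the wild-type mice. *Timp2*, the inhibitor that links the 2 proteins at the cell surface and had the highest level of all the members with a row of their own, was at 108, 173 and 111 FPKM in the transgenic mice and at 216, 155 and 205 FPKM in the wild-type mice.

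The 3 genes of this activation complex shared an order over the mice. Wild-type replicate 1 was the highest and transgenic replicate 1 the lowest for each of them, and within each genotype replicate 2 was the transgenic mouse nearest to the controls and the wild-type mouse nearest to the transgenic mice. This order was not particular to the complex. *Adam12* had it too, and so, outside the members, had *Ctsk* and *Col1a1*. *Col1a1* was at 90.8, 193 and 164 FPKM in the transgenic mice and at 234, 131 and 150 FPKM in the wild-type mice. The groups were apart for *Mmp2* and *Mmp14* and overlapped for *Timp2*, where transgenic replicate 2 exceeded wild-type replicate 2. Their log2 fold changes were -0.65, -0.56 and -0.57, and limma gave adjusted p-values of 0.0712, 0.0807 and 0.105 for them. With quantile normalization all 3 were called lower (adjusted p = 0.0349, 0.0434 and 0.0338), and without transgenic replicate 2 *Mmp2* and *Timp2* were. The amounts relative to each other differed less. The *Mmp2* to *Timp2* ratio of FPKM was 0.601, 0.548 and 0.637 (TG) against 0.725, 0.638 and 0.536 (WT), and the groups overlapped.

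Among the other inhibitors, *Timp3*, which is bound to the matrix and also inhibits ADAM17, fills 2 rows of 1 locus that also holds *Syn3*. The higher row was at 36.7, 46.6 and 46.4 FPKM in the transgenic mice and at 51.3, 46.5 and 62.5 FPKM in the wild-type mice, and the lower row ranged from 22.4 to 32.3 FPKM over the 6 mice. The groups overlapped in both rows (adjusted p = 0.176 and 0.349). *Timp4* was at 17.0, 3.43 and 12.4 FPKM in the transgenic mice and at 20.7, 21.1 and 12.9 FPKM in the wild-type mice. Transgenic replicate 2 was far under the others, and the log2 fold change of -0.88 (SE 0.50, with an adjusted p of 0.247) was -0.27 without that mouse. *Timp1*, the inhibitor induced in inflamed tissue, was the only inhibitor with a positive value, at 3.79, 5.28 and 7.50 against 4.39, 3.37 and 4.80 FPKM (log2 fold change 0.30, adjusted p = 0.347). The order of the inhibitors by level in wild-type iWAT was *Timp2*, *Timp3*, *Timp4* and *Timp1*, at means of 192, 53.4 (higher row), 18.2 and 4.19 FPKM, and neighbours in that order did not overlap in any wild-type mouse.

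**Figure D4:**
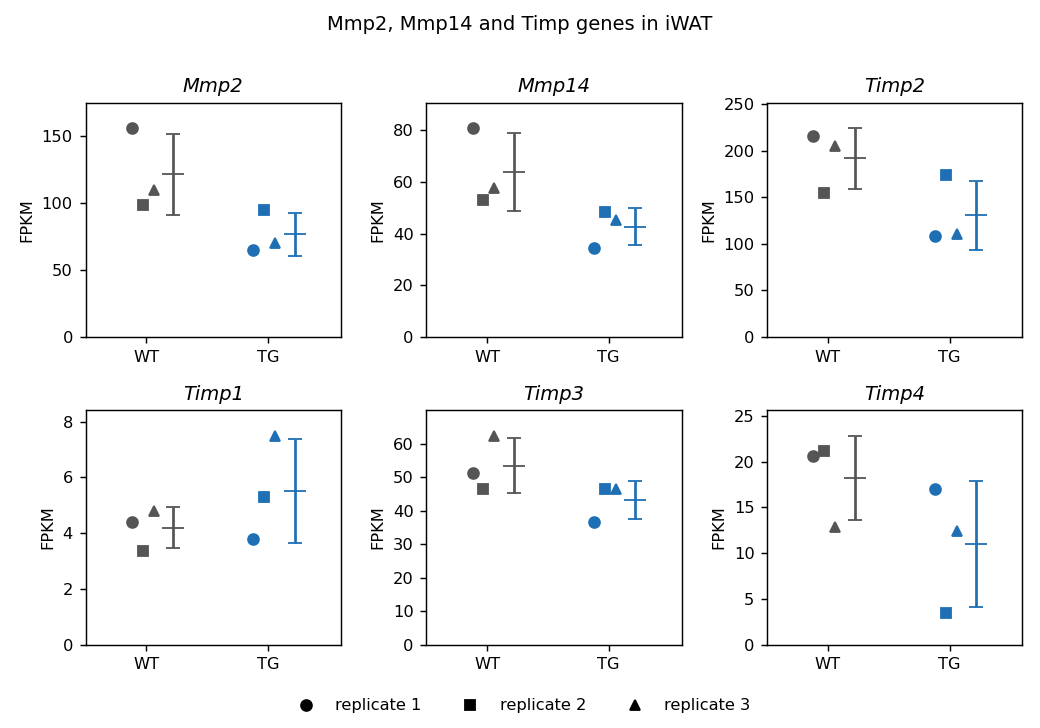
FPKM (y axis, starting at 0) of *Mmp2*, *Mmp14* and the 4 *Timp* genes by genotype, with 1 point per mouse, a symbol per replicate number, and the mean and SD of 3 mice (the higher row is drawn for *Timp3*). Wild-type replicate 1 is the highest point for *Mmp2*, *Mmp14* and *Timp2*, and transgenic replicate 2 the lowest for *Timp4*.

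The remaining MMPs over the filter were not called in either direction. *Mmp19* was at 25.3, 26.3 and 25.9 FPKM in the transgenic mice and at 24.0, 23.3 and 22.0 FPKM in the wild-type mice, and *Mmp15*, a membrane-type MMP, at 12.2, 10.2 and 11.9 against 10.1, 10.1 and 8.74 FPKM. For each of them all transgenic values were above all wild-type values, by a margin that for *Mmp15* was small, and the log2 fold changes were 0.16 and 0.23 (adjusted p = 0.158 and 0.145). Of the exon bases of *Mmp19*, 28.3% overlap other genes. *Mmp9* (gelatinase B), common in neutrophils and macrophages, was at 7.83, 14.4 and 11.0 FPKM in the transgenic mice and at 8.86, 7.84 and 10.8 FPKM in the wild-type mice (adjusted p = 0.476). *Mmp28*, *Mmp23* and *Mmp25* had log2 fold changes of 0.18, -0.30 and -0.20 with overlapping groups.

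The ADAM sheddases with broad expression differed little. *Adam9* was at 31.8, 26.8 and 31.0 FPKM in the transgenic mice and at 28.1, 25.7 and 29.0 FPKM in the wild-type mice (log2 fold change 0.11, adjusted p = 0.438). *Adam10*, which releases Notch and many other receptors, was at 20.1, 19.8 and 21.0 against 22.3, 21.0 and 23.7 FPKM (log2 fold change -0.13, adjusted p = 0.260). *Adam17*, which releases TNF and EGF receptor ligands, was at 11.8, 13.1 and 12.6 against 13.4, 13.1 and 15.6 FPKM (log2 fold change -0.15, adjusted p = 0.260). The groups overlapped for *Adam9* and *Adam10* and were barely apart for *Adam17*, where transgenic replicate 2 and wild-type replicate 2 were both at 13.1 FPKM after rounding.

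*Adam11*, a catalytically inactive ADAM known from neurons, had the highest log2 fold change of the members, 0.87 (SE 0.28), but was not called (adjusted p = 0.0680). It was at 4.30, 1.99 and 2.19 FPKM in the transgenic mice and at 0.589, 1.69 and 0.929 FPKM in the wild-type mice, and transgenic replicate 1 stood well above the others. *Adam12*, found in mesenchymal cells, was at 2.58, 4.80 and 3.87 against 6.77, 4.24 and 6.31 FPKM, with overlapping groups (log2 fold change -0.52, adjusted p = 0.133). *Adam19*, *Adam23*, *Adam33* and the row of *Adam8* had log2 fold changes from -0.35 to -0.14 and overlapping groups.

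Among the other ADAMTS proteases, *Adamts4*, the other classical aggrecanase, had a value of the opposite sign to that of *Adamts5* but was not called. It was at 1.24, 1.30 and 1.96 FPKM in the transgenic mice and at 0.824, 0.609 and 0.976 FPKM in the wild-type mice. The groups did not overlap, and the log2 fold change was 0.46 (limma adjusted p = 0.0814). *Adamts4* passed the expression filter through the transgenic mice only, so that the filter itself favours a positive value. *Adamts12* was at 5.76, 8.72 and 9.96 against 11.1, 8.80 and 12.3 FPKM (adjusted p = 0.216) and *Adamts10* at 7.44, 7.63 and 8.40 against 7.97, 11.1 and 8.91 FPKM (adjusted p = 0.243), both with overlap. *Adamts1*, *Adamts6*, *Adamts7*, *Adamts9* and *Adamts15* had log2 fold changes from -0.27 to 0.03 and overlapping groups. The ADAMTS-like proteins, which lack the protease domain, were represented by *Adamtsl4*, *Adamtsl5* and *Adamtsl1*, at log2 fold changes of -0.24, -0.07 and -0.08 (adjusted p of 0.370, 0.701 and 0.711). *Adamtsl5* lies in a locus that holds 40 other rows of the table.

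The crosslinking enzymes showed no call. *Loxl1*, which acts on elastin, was at 38.0, 56.2 and 43.7 FPKM in the transgenic mice and at 52.9, 40.3 and 51.1 FPKM in the wild-type mice. *Lox* itself was at 15.6, 10.1 and 12.9 against 14.1, 16.3 and 12.7 FPKM, and *Loxl2* at 7.25, 11.7 and 11.2 against 11.5, 8.25 and 12.1 FPKM. All of these groups overlapped. The log2 fold changes of *Loxl1*, *Lox* and *Loxl2* were -0.07, -0.17 and -0.08, with standard errors of 0.17, 0.16 and 0.20, and limma gave adjusted p-values of 0.782, 0.484 and 0.793. The row that holds *Loxl3* with *Aup1* and *Dqx1* was at 84.3 ± 4.97 FPKM (TG) and 87.3 ± 3.92 FPKM (WT; SD, n = 3 each), with a limma adjusted p of 0.695.

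Summed by family over the rows of 1 symbol, the *Mmp* genes held 180, 232 and 202 FPKM in the transgenic mice and 351, 254 and 269 FPKM in the wild-type mice. The *Adamts* genes held 58.3, 69.2 and 65.7 against 92.2, 104 and 88.3 FPKM, and the *Adam* genes 124, 123 and 122 against 142, 136 and 144 FPKM. For these 3 families every transgenic sum was under every wild-type sum. The sums include the members called lower, however. Among these, *Adam15* is the highest *Adam* row with a single symbol, and *Adamts2* and *Adamts5* are the highest *Adamts* rows. The separation is therefore not shown for the rest of each family. The *Timp* sums (188, 256 and 202 against 324, 248 and 316 FPKM) and the *Lox* sums (61.3, 78.8 and 68.3 against 79.1, 65.5 and 76.7 FPKM) overlapped. Transgenic replicate 2 was the highest transgenic mouse at 24 of the 44 tested members, or 54.5%, against 31.2% of all tested rows.

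The wider set of matrix-directed genes, listed by function and not by how they moved, gave 81 tested rows, of which 10 were called lower and 2 higher. That is 12.3% and 2.47% of the rows, with a median log2 fold change of -0.23, against 7.03% lower, 11.6% higher and a median of -0.01 over all tested rows. With few rows in each list, the counts below are read against those same shares. Fits without a mouse can again lose calls through the smaller number of mice alone. The number called lower fell whichever mouse other than transgenic replicate 2 was left out. It was 17 without transgenic replicate 2, 2 without transgenic replicate 3 and 4 without each of the other 4 mice, and it was 16 with quantile normalization, 6 with no filter and 6 with the mice blocked by replicate number. In the plasminogen system, an activator of MMP proenzymes, 0 of 5 rows were called by limma and 1, *Plaur*, was lower at an unadjusted p under 0.05. Of 14 rows of cathepsins and cystatins, 4 fell, led by *Ctsk*, a collagen-degrading cathepsin (17.0, 23.4 and 23.4 FPKM in the transgenic mice, 74.5, 43.0 and 47.3 FPKM in the wild-type mice, log2 fold change -1.30, limma adjusted p = 0.00948), with *Ctsc* and *Ctss*, cathepsins of immune cells, at -0.63 and -0.74. The cathepsins *Ctsd* and *Ctsb*, of much higher level, had positive values that were not called (limma adjusted p = 0.0802 and 0.119, no overlap). Their means were 1207 FPKM (TG) and 868 FPKM (WT) for *Ctsd* and 706 FPKM (TG) and 538 FPKM (WT) for *Ctsb*. Among 11 rows of other matrix-directed enzymes, *Htra1*, a secreted serine protease, fell (72.2, 95.3 and 72.2 against 177, 143 and 144 FPKM, log2 fold change -0.95, adjusted p = 0.00635), and the shared row of *Hyal1* and *Nat6* rose (log2 fold change 0.64, adjusted p = 0.00374).

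Among 10 rows of protease regulators 1 was called, *Pcolce2*, an enhancer of procollagen C-proteinase (24.6, 32.8 and 20.9 against 46.8, 38.5 and 38.1 FPKM, log2 fold change -0.65, limma adjusted p = 0.0377). Of 20 rows of collagen modification and other crosslinking, 4 fell and 0 rose. These were *Pxdn*, which crosslinks type IV collagen (log2 fold change -0.42, adjusted p = 0.0124), *P4hb*, a subunit of collagen prolyl hydroxylase (-0.41, adjusted p = 0.0192), and both rows of *Plod2*, the lysyl hydroxylase of collagen telopeptides. The higher row of *Plod2* was at 8.84, 11.5 and 10.3 FPKM in the transgenic mice and at 26.2, 14.3 and 18.9 FPKM in the wild-type mice (-0.86, adjusted p = 0.0306). Of 21 rows of elastic fibre and proteoglycan genes, 0 fell and 1 rose (at an unadjusted p under 0.05 by limma, 4 were lower and 3 higher). It was a row of *Ltbp2*, a microfibril protein, at 46.6, 42.5 and 43.2 FPKM in the transgenic mice and at 14.9, 14.1 and 16.9 FPKM in the wild-type mice (log2 fold change 1.47, SE 0.09, adjusted p = 0.000324).

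Markers of other cells of the tissue differed between the genotypes as well. Of 8 macrophage markers 5 fell and 8 were negative, and their summed level ran from 367 to 520 FPKM in the transgenic mice and from 767 to 973 FPKM in the wild-type mice. Of 8 fibroblast and progenitor markers 1 fell, *Dpt*, and the sum ran from 760 to 1175 FPKM in the transgenic and from 1297 to 1339 FPKM in the wild-type mice, highest among the transgenic mice in replicate 2. That separation rested on *Dpt*, and without it the sums ran from 576 to 927 FPKM (TG) and from 720 to 881 FPKM (WT) and overlapped. *Pdgfra*, a marker that defines the adipocyte progenitors, lay at -0.15 on the log2 scale (adjusted p = 0.560). Of 8 endothelial markers 2 rose, of 8 adipocyte rows 2 fell, and of the epithelial, neutrophil, smooth muscle and skeletal muscle rows (9, 3, 6 and 8) 0 were called by limma, with 2 epithelial and 1 neutrophil row lower and 1 row higher in each of the last 3 lists at an unadjusted p under 0.05. All 9 lymphocyte rows were negative, with a median log2 fold change of -0.57, close to the -0.59 of the macrophage markers, and 1 fell, *Ms4a1*, while 6 were lower at an unadjusted p under 0.05. The skeletal muscle sum was 573 FPKM in transgenic replicate 2, against 7.15 to 121 FPKM in the other mice. The part of these cell types in the levels of the matrix genes was not tested.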

How the data were processed

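Total RNA of iWAT was made into TruSeq libraries, 1 per mouse, and sequenced as single-end reads. The authors mapped the reads to mm10 with TopHat and quantified genes with Cufflinks (TopHat2 2.0.9, Bowtie2 2.1.0 and Cufflinks 2.2.1 in the submitters' processing notes), and deposited FPKM for each gene row and mouse. Annotation and handling of reads from similar genes are not given in the sources used here. The start positions of the loci count from 0 and are printed here counting from 1.

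From these values log2(FPKM + 1) was computed, and rows with a mean over 1 FPKM in a genotype (11692 of 19445, the filter of the study's methods) were fitted with limma 3.58.1 in R 4.3.3 (eBayes with trend, no covariates, two-sided, Benjamini-Hochberg adjustment over all rows). On simulated data for this comparison, with 11692 rows, 91% of 100 genes changed 2-fold and 96% of 100 changed 3-fold were called, and 6.97% of the calls were unchanged genes. The noise was normal and independent between rows. The changed genes were drawn only from rows above a lower cut on mean level, so these shares do not cover the lowest rows. No count test was run, since FPKM are not counts. Relative depth is the commonest ratio between low values of a mouse and of wild-type replicate 3 (12.3% to 15.2% of those rows). Named members were those called and the 3 highest of each family, and in each wider list the 3 with the smallest adjusted p per direction. The others named were chosen after their values were seen. The members and lists were chosen with earlier results of these data known. Each library is 1 mouse. Alternatives were another pseudocount, filter, scaling, eBayes setting, threshold, a replicate block and each mouse left out. Overlaps with other genes are given for some members, and 1 of them is not reported here.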

Additional observations from a re-analysis of the deposited data

How the results depend on the processing

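Among the members called lower, the count stayed between 5 and 7 with all 6 mice at an adjusted p under 0.05, and was 1 at an adjusted p under 0.01. With each mouse left out it ranged from 1 to 8. The members called higher were 0 in every setting. For the wider lists the 10 rows called lower became 6 with no filter, 16 with quantile normalization and 2 at an adjusted p under 0.01, and ranged from 2 to 17 with a mouse left out, the highest without transgenic replicate 2. The labels number the mice 1 to 3 in both genotypes. Deviations of same-numbered mice from their group means correlated at only 0.013, 0.034 and 0.070, and no mouse correlated best with its own number. That gives no sign that the numbers pair the mice, but correlations this weak cannot exclude it. With the replicate block, 5 members and 6 rows of the wider lists were called lower. Directions that turned, all of genes called in none of these settings, were those of *Adamts7* with quantile normalization (0.00083) and, with a mouse left out, of 8 genes whose values ranged from -0.28 to 0.062 (*Adam23*), -0.13 to 0.031 (*Adamtsl5*), -0.21 to 0.0018 (*Adamtsl1*), -0.22 to 0.053 (*Loxl1*), -0.22 to 0.13 (*Adamts15*), -0.24 to 0.11 (*Loxl2*), -0.12 to 0.20 (*Adamts1*) and -0.11 to 0.075 (*Adamts7*). The cause was not tested. Without counts, the precision of the low rows, *Mmp27* among them, is not known.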
